A study of Homo sapiens with 6 samples.

Results

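The genes described here belong to signalling by G-protein coupled receptors, as measured by RNA-seq after CIRBP knockdown in a human cardiomyocyte line. They are the genes of the deposited table whose Gene Ontology cell carries the exact term for the G-protein coupled receptor signalling pathway, with 10 or more estimated counts in at least 3 of the 6 libraries. Genes that also carry the term for regulation of receptor activity were left out, and so were 2 further named genes. Of 58884 genes in the table, 1481 carry the term, 1368 remained after these exclusions and 271 passed the count limit. The rule uses annotation and abundance only. The term is broad, so the members include exchange factors, lipid kinases, ligands and a few noncoding and read-through genes next to the receptors themselves.

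The cells carry the label T0519, an immortalized human cardiomyocyte line, whereas the paper names AC16, another human immortalized ventricular line, for this experiment. The NC group (3 libraries) received a negative control siRNA and the SiCIRBP group (3 libraries) received siRNA against CIRBP, an RNA-binding protein induced by cold and other stress, and neither group is labelled with any further drug or stress. The comparison asks which transcripts differ once CIRBP is reduced. The labels do not say whether the libraries of a group came from separate cultures, so the p-values measure only the spread between these libraries, which may be technical. The study tested NC_2, NC_3, SiCIRBP_1 and SiCIRBP_3 only, having left out NC_1 and SiCIRBP_2 after comparing the libraries by correlation and principal components, and the same 4 libraries give the main test here, with all 6 beside it.

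G-protein coupled receptors span the membrane several times and, when a ligand binds, load GTP onto a G alpha subunit, which then parts from the beta-gamma pair. Gs and Gi subunits raise or lower cyclic AMP through adenylyl cyclases, Gq acts through phospholipase C beta and calcium, and G12/13 acts through exchange factors of small GTPases. RGS proteins, receptor kinases, arrestins and phosphodiesterases switch the signal off. In heart muscle this system carries the adrenergic, angiotensin, endothelin, muscarinic and adenosine inputs that set rate, force and growth.

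The libraries held 25726259 to 29919566 estimated counts, which were scaled by the TMM method and are given as CPM (counts scaled to a common library size). CIRBP itself ranged from 85.8 to 91.0 CPM in the NC libraries and was 54.8, 24.3 and 46.3 CPM in SiCIRBP_1, SiCIRBP_2 and SiCIRBP_3, so the targeted gene was lower in every SiCIRBP library. SiCIRBP_2 gave the lowest value of all 6 libraries for 112 of the 271 members, against 22 to 43 members for each of the other libraries. It gave the highest value for 53 members, against 24 to 65 for each of the others. The same was not counted over all genes, so this need not be particular to the members. A list of 23 interferon-stimulated genes summed to between 845 and 884 TPM (a level that is also divided by an assigned transcript length) in the NC libraries and to 385, 8776 and 1718 TPM in SiCIRBP_1, SiCIRBP_2 and SiCIRBP_3, and its part in the values of the members was not tested. Of 14 cardiomyocyte markers, 10 stayed below 1 TPM in every library, including MYH6, MYL2, RYR2 and PLN at 0 in every library. GATA4 (22.6 to 63.0 TPM), ACTN2 (7.86 to 15.9 TPM) and NKX2-5 (3.39 to 9.69 TPM) were measured throughout, and TNNI3 ranged from 0.11 to 2.45 TPM. Most contractile markers of the labelled cell type were thus absent or near 0. Of 9 fibroblast and mesenchymal markers, VIM stood at 2724 to 3663 TPM and COL1A1 at 320 to 1158 TPM. LUM, on the same list, was at 0 in every library and DCN at 0.89 to 1.92 TPM. Of 4 epithelial markers, KRT18 stood at 938 to 1608 TPM and KRT8 at 13.7 to 28.1 TPM. EPCAM (0 to 0.45 TPM) and CDH1 (0 to 0.12 TPM), on the same list, were at or near 0. Which cell type the libraries most resemble was not tested.

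By length-scaled level, the members covered a wide range. Of the 271 members, 203 had a mean of at least 1 TPM over the 6 libraries, 111 of at least 10 TPM and 22 of at least 100 TPM. Receptors sat low in this range, with 45 of 113 below 1 TPM and 33 at or above 10 TPM, whereas 23 of the other 158 members were below 1 TPM and 78 were at or above 10 TPM. GNAS, the Gs alpha subunit that drives adenylyl cyclase, had the highest mean level at 1223 TPM, with 1222 ± 18.3 TPM (SD, n = 3) in NC and 1225 ± 79.3 TPM (SD, n = 3) in SiCIRBP. RHOA, the GTPase downstream of G12/13, followed at 725 TPM. Next came GNB2 (334 TPM), CALM3 (301 TPM), APP (291 TPM), RGS4 (289 TPM) and GNB1 (282 TPM), which encode G beta subunits, a calmodulin, the amyloid precursor protein and a regulator of Gi and Gq signalling. Among receptors the highest were GPRC5B (165 TPM), GPRC5A (160 TPM) and ACKR3 (145 TPM). The ranges of these 3 receptors over the 6 libraries overlap.

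Of the 1097 term genes below the count limit, 762 had 0 counts in every library and 1055 never had more than 9 counts in any library. Most of them, 610, carry the symbol of an odorant receptor, a large family within this term, and 614 of the 1368 term genes left after the exclusions do. At this depth their transcripts were not detectable or could not be compared.

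Single receptors made up most of the members past both the adjusted p and a 2-fold difference, but not of those past the adjusted p alone. No G protein subunit reached a 2-fold difference. Over the 4 libraries, the quasi-likelihood test of edgeR, adjusted by the method of Benjamini and Hochberg (adjusted p under 0.05 and at least 2-fold) called 8 of 269 tested members higher in SiCIRBP, which is 2.97%, against 1.82% of all 15421 genes tested. It called 10 lower, which is 3.72%, against 1.8% of all genes tested. Of these 18 called members (either direction, against 3.62% of all genes), 13 are receptors, which make up 113 of the 271 members. A mean under 1 TPM, where many receptors sit, was found for 7 of the 18. Among the 18, PTAFR, C5AR1 and GALR1 met the count limit through the group where they were higher, so these calls are no support. DESeq2 over the same libraries called 5 higher and 5 lower of the 212 members with an adjusted p, against 1.29% and 1.64% of all genes (2.94% in either direction), and all 10 were among the 18. With no minimum fold, 28 members were higher (10.4%, against 9.62% of all genes tested) and 34 were lower (12.6%, against 9.76% of all genes tested), so that at this threshold the members' shares lay near the background. Receptors were 11 of these 28 and 13 of these 34. At an unadjusted p under 0.05 the counts were 42 higher and 58 lower, against 18.2% and 18.5% of all genes. DESeq2 with no minimum fold gave 26 higher and 33 lower, against 10.7% and 11.9% of all genes. In bulk libraries, a gene carried by fewer cells and less RNA per cell cannot be told apart. The median log2 fold change was -0.04 over the members and 0.00 over all genes tested.

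The calls were sensitive to which libraries entered. Over all 6 libraries, the edgeR test called 0 members higher and 0 lower (0.0% of all 15217 genes tested), and 24 members were higher and 43 were lower at an unadjusted p under 0.05 (8.89% and 15.9% of 270 members, against 12.1% and 11.6% of all genes). DESeq2 over the same 6 libraries called 6 higher and 6 lower (2.47% of 243 members in each direction, against 1.14% and 1.13% of all genes with an adjusted p, and 2.27% in either direction), of which 10 were among the 18 and the other 2 were PDE3A and LGR5. Without NC_2 the edgeR counts over the remaining 3 libraries were 3 higher and 1 lower, and without NC_3 they were 2 higher and 0 lower (over all genes 48 and 74, and 24 and 37). Without SiCIRBP_1 they were 18 and 13, and without SiCIRBP_3 they were 10 and 21 (over all genes 618 and 549, and 376 and 558). RHOB and P2RY11 kept an adjusted p under 0.05 in all 4 of these fits, GPR39 and AKAP12 in 3 of them, and the other 14 called members in 2 or fewer. In the plot of the called members, NC_1 lay nearer the SiCIRBP mean of the tested libraries for 4 of the 18, and SiCIRBP_2 lay nearer that mean for 14 of them.

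**Figure D1:**
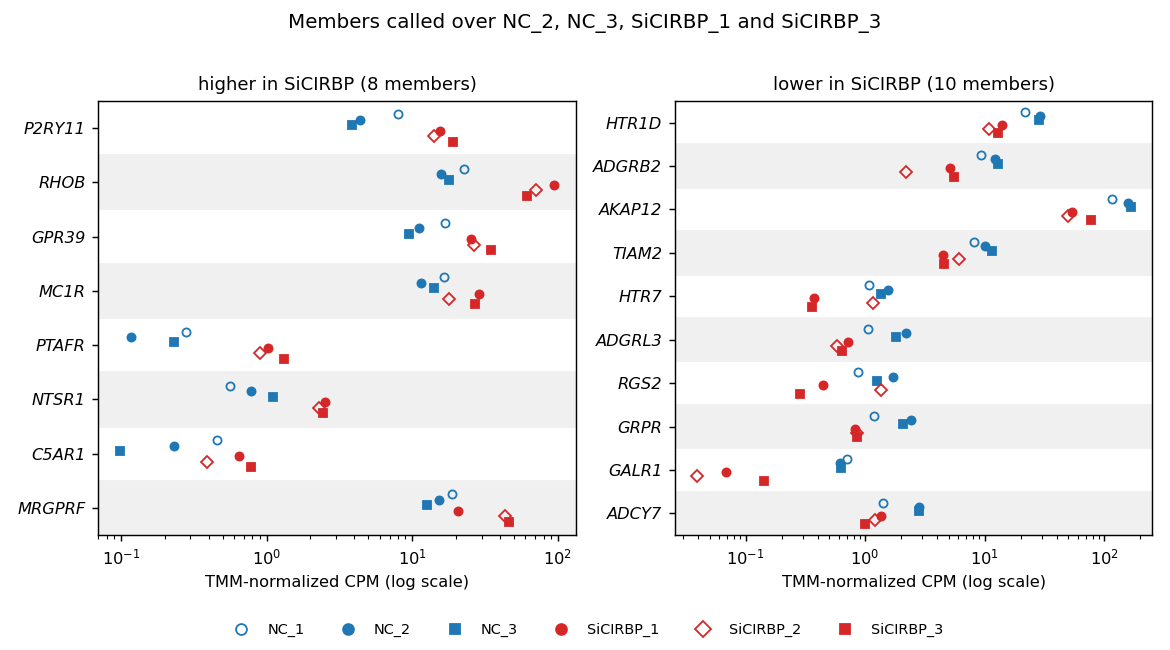
TMM-normalized CPM (log axis) of the 18 members called over 4 libraries, 8 higher and 10 lower in SiCIRBP, each library drawn as 1 point (blue NC, red SiCIRBP; open symbols are NC_1 and SiCIRBP_2, which the test left out). The SiCIRBP points lie wholly to one side of the NC points for 7 of the higher and 8 of the lower members, with C5AR1, HTR7 and RGS2 as the exceptions. PTAFR and GALR1, among those without overlap, met the count limit only through the group where they were higher.

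In all 6 libraries, 35 of 270 members had all 3 SiCIRBP values above all 3 NC values (against 16.2% of all genes tested), and 55 had all 3 below (against 16.6% of all genes tested). These counts include PTAFR, BDKRB1 and GALR1, which met the count limit through the group where they were higher. For a single gene without overlap the exact two-sided permutation test gives p = 0.1, the smallest that 3 against 3 libraries allow. Transcript length differed between the directions: the members higher at an adjusted p under 0.05 had a median assigned length of 2306.5 bases and those lower of 5349.5 bases, and over all genes tested the same medians were 2388 and 4131 bases. With an offset for gene length, 17 of the 18 calls remained (7 higher and 10 lower, against 1.7% and 1.67% of all genes, and 3.37% in either direction). With no minimum fold 26 members were higher and 24 were lower (against 8.82% and 7.76% of all genes), where 28 and 34 had been so without the offset. The 1 lost call was MRGPRF.

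RHOB, a small GTPase that controls actin and endosome traffic and is transcribed as an early response gene, was the member with the clearest rise. Its normalized level was 22.8, 15.7 and 17.9 CPM in NC_1, NC_2 and NC_3 and 94.6, 71.6 and 62.0 CPM in SiCIRBP_1, SiCIRBP_2 and SiCIRBP_3. All 3 SiCIRBP libraries were far above all 3 NC libraries. The log2 fold change was 2.22 (SE 0.21, adjusted p = 0.00465, edgeR over 4 libraries), a 4.66-fold difference, and 2.02 over all 6 libraries (adjusted p = 0.0853, edgeR; 1.31e-15, DESeq2). It was the only member called when SiCIRBP_2 was added to the 4 libraries and the only one called with the replicate number as a block over all 6. The gene spans chr2:20447074-20449445 (GRCh38, plus strand).

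The promoters of called members are shown for the 2 higher and the 2 lower members with the smallest p-values. Only members without overlap over the 6 libraries, and whose window holds no annotated exon, were used. Each run is the 250 bases before the RefSeq start (GRCh38.p14), read 5′ to 3′ on the gene's strand, at chr2:20446824-20447073 (RHOB, plus strand), chr20:62708586-62708835 (NTSR1, plus strand), chr1:23217503-23217752 (HTR1D, minus strand) and chr1:31764341-31764590 (ADGRB2, minus strand). Capitals mark the CCAAT box letters CCAAT and the GC box letters GGGCGG on either strand, and overlapping matches were counted apart.
RHOB: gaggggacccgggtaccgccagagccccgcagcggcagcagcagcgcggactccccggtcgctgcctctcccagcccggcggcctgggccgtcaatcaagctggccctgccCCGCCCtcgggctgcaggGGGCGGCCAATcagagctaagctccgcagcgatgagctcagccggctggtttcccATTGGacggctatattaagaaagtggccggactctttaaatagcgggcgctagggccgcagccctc
NTSR1: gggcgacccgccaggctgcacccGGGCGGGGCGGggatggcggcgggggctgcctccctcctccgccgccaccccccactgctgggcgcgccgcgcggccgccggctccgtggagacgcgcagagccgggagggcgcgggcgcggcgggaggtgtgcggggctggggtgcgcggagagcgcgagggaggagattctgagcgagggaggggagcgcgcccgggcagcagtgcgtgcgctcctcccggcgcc
HTR1D: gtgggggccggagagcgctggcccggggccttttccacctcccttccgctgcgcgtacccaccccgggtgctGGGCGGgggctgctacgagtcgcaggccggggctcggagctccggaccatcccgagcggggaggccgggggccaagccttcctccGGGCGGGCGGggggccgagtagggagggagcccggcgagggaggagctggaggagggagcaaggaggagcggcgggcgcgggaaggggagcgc
ADGRB2: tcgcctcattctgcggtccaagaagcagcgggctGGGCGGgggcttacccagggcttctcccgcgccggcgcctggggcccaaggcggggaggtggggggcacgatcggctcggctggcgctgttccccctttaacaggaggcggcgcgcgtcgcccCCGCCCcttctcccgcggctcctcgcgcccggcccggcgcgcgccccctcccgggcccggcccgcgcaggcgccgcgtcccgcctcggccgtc
RHOB held 2 CCAAT and 2 GGGCGG matches, NTSR1 held 2 GGGCGG, HTR1D held 3 and ADGRB2 held 2. Promoters were found by symbol for 210 of the 271 members, and GGGCGG was in 67.6% of them, against 42.3% of all 27305 promoters in the table. Their median GC content was 65.4%, against 58%. The members had passed a count limit and the promoters of the whole table had not, so these shares are not matched for expression. CCAAT was in 28.6% of the members' promoters and in 33% of all. The cyclic AMP response element letters TGACGTCA, searched in the same way, were in 1.43% of the members' promoters and 1.77% of all, and in 0 of the 14 matched promoters of cyclic nucleotide enzymes and anchors. These are matches of letters, not measured sites.

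Of the 7 receptors called higher, P2RY11, GPR39 and MC1R had the smallest p-values. P2RY11, an ATP receptor that couples to both Gs and Gq, had 7.96, 4.39 and 3.87 CPM in NC_1 to NC_3 and 15.5, 14.1 and 19.1 CPM in SiCIRBP_1 to SiCIRBP_3. NC_1 was the highest NC library and still lay below every SiCIRBP library. Its log2 fold change was 2.07 (SE 0.17, adjusted p = 0.00348, edgeR over 4 libraries), the smallest p among the members. P2RY11 shares 49.5% of the 31-base words of its transcripts with the read-through gene PPAN-P2RY11, so that reads in that part can be split between them. PPAN-P2RY11, which is itself a member, did not move with it, at 12.7 and 13.5 CPM in the tested NC libraries and 13.5 and 12.7 CPM in the tested SiCIRBP libraries.

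GPR39, a zinc-sensing receptor, had 16.8, 11.1 and 9.51 CPM in the NC libraries and 25.5, 26.8 and 35.0 CPM in the SiCIRBP libraries, in order of replicate. The groups did not overlap, and NC_1 was again the nearest NC library to SiCIRBP. The log2 fold change was 1.55 (SE 0.18, adjusted p = 0.00648, edgeR over 4 libraries). Of its transcript words, 34.4% lie opposite LYPD1, a GPI-anchored modulator of nicotinic receptors that runs on the other strand and is also a member. LYPD1 had a log2 fold change of 0.92 (SE 0.16, adjusted p = 0.0153, edgeR), and since the sources used here do not say whether reads were counted by strand, the overlapping part of the pair cannot be told apart. MC1R, the melanocortin receptor of pigment cells, rose from 16.5, 11.5 and 14.2 CPM in the NC libraries to 28.97, 18.0 and 26.97 CPM in the SiCIRBP libraries. SiCIRBP_2 lay only just above NC_1, and the log2 fold change was 1.12 (SE 0.14, adjusted p = 0.00726, edgeR over 4 libraries). MC1R shares 38.4% of its transcript words with other genes on its own strand, among them AC092143.1 and TCF25, so its value is uncertain to that extent.

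The other 4 receptors called higher had larger p-values, and 3 of them were scarce. PTAFR, the receptor for platelet-activating factor, had 8, 3 and 7 estimated counts in NC_1 to NC_3 and 30.4, 23 and 37 in SiCIRBP_1 to SiCIRBP_3. PTAFR met the count limit only through its SiCIRBP libraries, so the gap between its groups is partly fixed by that limit and is no support. Its fitted log2 fold change was 2.70 (SE 0.49, adjusted p = 0.0166, edgeR over 4 libraries). NTSR1, the main neurotensin receptor, had 16, 20 and 34 counts in the NC libraries and 74, 59 and 69 in the SiCIRBP libraries (log2 fold change 1.39, SE 0.31, adjusted p = 0.0284, edgeR). C5AR1, the receptor for complement C5a, had 13, 6 and 3 counts against 19, 10 and 22. There the groups overlapped, since SiCIRBP_2 lay below NC_1. Of its NC libraries only NC_1 reached 10 counts. C5AR1 thus met the count limit through its SiCIRBP libraries, and its call is no support. MRGPRF, an orphan of the Mas-related family, had 18.9, 15.3 and 12.6 CPM in NC and 20.8, 43.6 and 46.4 CPM in SiCIRBP. SiCIRBP_1 lay only a little above NC_1, the log2 fold change was 1.27 (SE 0.35, adjusted p = 0.0479, edgeR), and its lowest value with 1 library left out was 0.58. BDKRB1, the inducible bradykinin receptor, had 6, 11.6 and 4 counts in NC and 20, 33.6 and 21 in SiCIRBP, and did not pass the test over 4 libraries (log2 fold change 1.29, SE 0.60, adjusted p = 0.17, edgeR). It too met the count limit through its SiCIRBP libraries, so the gap between its groups is no support.

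Of the 6 receptors called lower, HTR1D and ADGRB2 had the smallest p-values. HTR1D, a Gi-coupled serotonin receptor, had 21.7, 29.2 and 28.3 CPM in NC_1 to NC_3 and 13.9, 10.8 and 12.97 CPM in SiCIRBP_1 to SiCIRBP_3. The SiCIRBP libraries lay close together and below every NC library. The log2 fold change was -1.10 (SE 0.11, adjusted p = 0.00534, edgeR over 4 libraries) and -1.07 over all 6 libraries (adjusted p = 0.0869, edgeR; 2.36e-05, DESeq2). HTR7, a Gs-coupled serotonin receptor, had 31, 40 and 41 counts in NC and 11, 30 and 10 in SiCIRBP. The left-out SiCIRBP_2 reached the NC level once scaled, so the groups overlapped, and the log2 fold change fell in size from -1.97 (SE 0.38, adjusted p = 0.0191, edgeR over 4 libraries) to -1.08 over all 6. HTR7 shares 7.98% of its transcript words with HTR7P1, which had a log2 fold change of 0.68 (SE 0.25, adjusted p = 0.0975, edgeR over 4 libraries).

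Adhesion receptors, which pair a long extracellular part with the membrane spans, were lower where they passed the test. Of 14 members 4 were lower and 0 were higher at an adjusted p under 0.05, by edgeR over 4 libraries (ADGRB2, ADGRL3, ADGRL1 and ADGRA2). DESeq2 gave 4 lower and 1 higher, and the unadjusted edgeR p gave 6 lower and 1 higher. Over 6 libraries 5 of the 14 had all SiCIRBP values below all NC values and 0 had them above. Over all genes tested 9.76% were lower at the adjusted p and 16.6% lay wholly below. ADGRB2, a brain-enriched member of this family, had 9.25, 12.1 and 13.02 CPM in NC and 5.10, 2.22 and 5.59 CPM in SiCIRBP. SiCIRBP_2 was lowest and the groups were apart, with a log2 fold change of -1.23 (SE 0.15, adjusted p = 0.00718, edgeR over 4 libraries). ADGRL3, a latrophilin that binds teneurins and FLRT proteins, had 30, 57 and 55 counts in NC and 21, 15 and 18 in SiCIRBP (log2 fold change -1.55, SE 0.33, adjusted p = 0.0238, edgeR). The median assigned length of these 14 genes was 5532.5 bases, and with the length offset 2 were lower and 1 was higher.

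Of the peptide receptors that fell, GRPR and GALR1 were both scarce. GRPR, the gastrin-releasing peptide receptor on the X chromosome, had 34, 62 and 63 counts in NC and 24, 22 and 24 in SiCIRBP (log2 fold change -1.41, SE 0.30, adjusted p = 0.0251, edgeR). GALR1, a galanin receptor, had 20, 16 and 19 counts in NC and 2, 1 and 4 in SiCIRBP, the lowest SiCIRBP counts among the called members. It met the count limit only through its NC libraries, so the gap between its groups is partly fixed by that limit and is no support. With so few counts the fitted log2 fold change of -2.52 (SE 0.57, adjusted p = 0.0284, edgeR) carries a large counting error. LGR5, an R-spondin receptor of stem cells, had 6.90, 7.03 and 6.92 CPM in NC and 2.60, 1.13 and 4.52 CPM in SiCIRBP. Its groups did not overlap, and the log2 fold change was -0.97 over 4 libraries (SE 0.28, adjusted p = 0.0527, edgeR) and -1.33 over all 6 (adjusted p = 0.0199, DESeq2).

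In several abundant receptors SiCIRBP_2 stood far from the other libraries. ACKR3, a scavenger of the chemokine CXCL12, had 170, 286 and 309 CPM in NC_1 to NC_3 and 184, 53.2 and 154 CPM in SiCIRBP_1 to SiCIRBP_3. NC_1 lay inside the SiCIRBP range. The log2 fold change was -0.82 over 4 libraries (SE 0.11, adjusted p = 0.00804, edgeR) and -0.97 over 6 (adjusted p = 0.215, edgeR). The 3 retinoic acid induced orphan receptors went apart: over 4 libraries GPRC5A fell (log2 fold change -0.54, SE 0.10, adjusted p = 0.0181, edgeR) while GPRC5B (0.52, SE 0.13, adjusted p = 0.0347) and GPRC5C (0.87, SE 0.13, adjusted p = 0.00981) rose. In SiCIRBP_2 all 3 were at their lowest, with GPRC5B at 216 CPM against 465 to 789 CPM elsewhere and GPRC5C at 10.7 CPM against 23.2 to 46.6 CPM elsewhere. In all, 62 members passed an adjusted p under 0.05 over 4 libraries (19.4% of all genes did), 42 of these showed no overlap over 6 (67.7%, against 69.4% of all genes that passed), and for 7 SiCIRBP_2 lay beyond the NC range on the opposite side (11.3%, against 9.67%).

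Frizzled receptors bind Wnt proteins. Of 10 frizzled and smoothened members, FZD8 and FZD5 were lower and 0 were higher at an adjusted p under 0.05 by edgeR over 4 libraries. Over all genes tested 9.76% were lower and 9.62% higher at this threshold. FZD8 had 86.0, 111 and 121 CPM in NC and 76.0, 57.2 and 63.3 CPM in SiCIRBP, with no overlap (log2 fold change -0.74, SE 0.11, adjusted p = 0.0113). DESeq2 and the unadjusted edgeR p also gave 2 lower and 0 higher. Of the 16 lipid receptors, PTAFR and S1PR3 were higher and 0 were lower, against the same shares of all genes. PTAFR met the count limit only through its SiCIRBP libraries, so it adds no support here. At the unadjusted p 3 were higher and 0 lower, and by DESeq2 1 was higher and 0 lower.

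**Figure D2:**
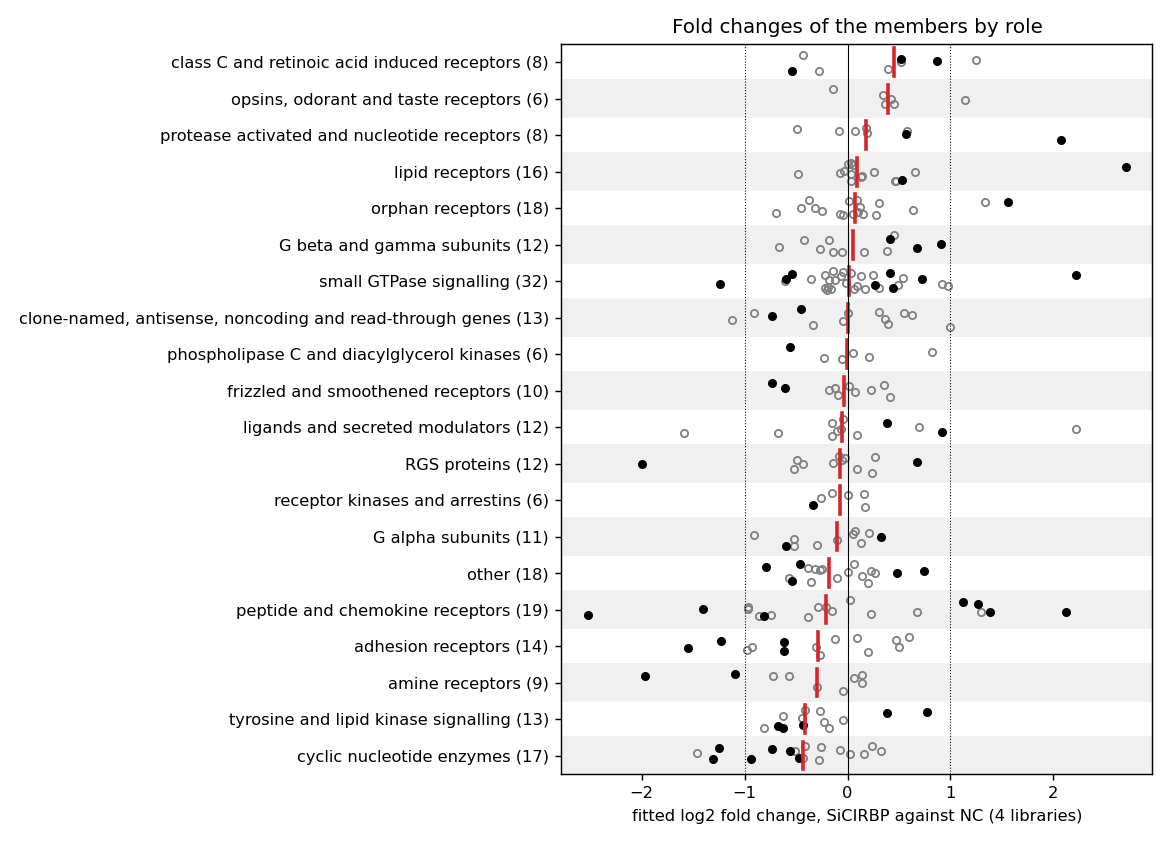
Fitted log2 fold change over 4 libraries (SiCIRBP against NC) of every tested member in the 20 roles with at least 6 members, 1 point per gene (filled where the adjusted p was under 0.05), with the median of each role as a red bar and dotted lines at 2-fold. Cyclic nucleotide enzymes and anchors have the lowest median, -0.43, with 6 filled points below 0 and 0 above. Tyrosine and lipid kinase signalling is almost level, at -0.42.

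The receptors through which drugs and hormones act on heart muscle were taken from a list of 52. Of these, 25 were members and 27 were below the limit, 8 of them at 0 counts in every library. The angiotensin receptors AGTR1 and AGTR2 had at most 1 count in any library, the endothelin receptors EDNRA and EDNRB at most 7 and 0, and the muscarinic receptor CHRM2 at most 7. Of the adrenergic receptors named here, ADRB1, the main beta receptor of heart muscle, had a mean level of 1.79 TPM and ADRA1B of 4.80 TPM, while ADRA2C, which restrains noradrenaline release in nerves, had 16.1 TPM. None of these 3 passed the edgeR test over 4 libraries. ADRB1 had 3.54, 2.95 and 2.95 CPM in NC and 2.91, 6.73 and 3.60 CPM in SiCIRBP, so that only SiCIRBP_2 left the NC range upwards by much. ADRA2C had 23.6, 30.5 and 33.9 CPM in NC and 26.5, 15.9 and 12.5 CPM in SiCIRBP, with an overlap through SiCIRBP_1 (log2 fold change -0.72, SE 0.31, adjusted p = 0.147, edgeR).

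The highest levels on this list belonged to S1PR3, the sphingosine 1-phosphate receptor coupled to Gi, Gq and G12/13, at 63.5 TPM, and to ADORA2B, the low-affinity adenosine receptor, at 46.8 TPM. F2R, the thrombin receptor PAR1, followed at 38.9 TPM, then ADORA2A at 38.3 TPM and PTGER4, a prostaglandin E2 receptor, at 32.2 TPM. The ranges of neighbours in this order overlap over the 6 libraries. ADORA2A shares 54.9% of its transcript words with a read-through gene, so its level is uncertain. Over 4 libraries 3 of the 25 tested receptors of the list were higher and 0 were lower at an adjusted p under 0.05: P2RY11, ADORA2B and S1PR3 (4 higher and 0 lower at an unadjusted p). Over all genes tested 9.62% were higher and 9.76% lower at the adjusted p. ADORA2B had 59.7, 46.3 and 45.3 CPM in NC and 70.5, 46.2 and 64.7 CPM in SiCIRBP, and S1PR3 had 224, 191 and 178 CPM in NC and 245, 120 and 288 CPM in SiCIRBP. For both genes SiCIRBP_2 lay at the low end, and over 6 libraries the log2 fold changes shrank from 0.56 to 0.26 and from 0.53 to 0.14. PTGER2 showed no overlap (5.01, 3.73 and 3.21 CPM against 5.51, 7.31 and 5.38 CPM), with a log2 fold change of 0.65 (SE 0.20, adjusted p = 0.0638, edgeR). The other named receptors of the list, F2R, F2RL1, ADORA2A, LPAR1, LPAR2, PTGER4, S1PR1, S1PR2, TBXA2R, HRH1 and OXTR, had log2 fold changes between 0.01 and 0.46 over 4 libraries and adjusted p-values of 0.158 or more.

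**Figure D3:**
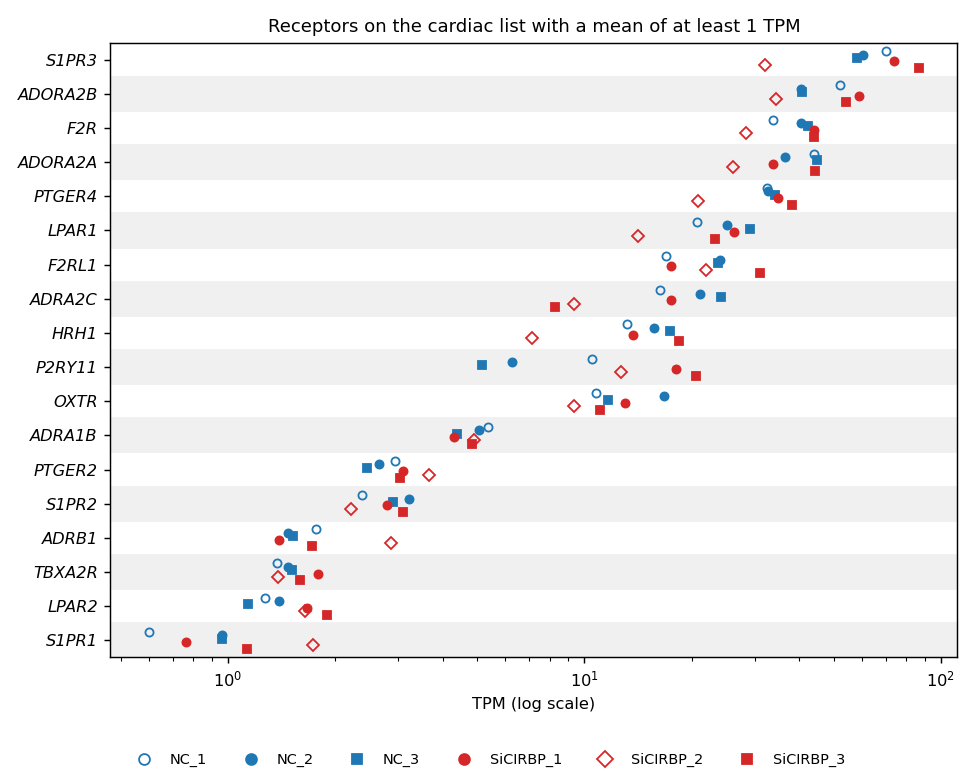
TPM (log axis) in each of the 6 libraries for the 18 receptors of the cardiac list with a mean of at least 1 TPM, ordered by mean, 1 point per library (blue NC, red SiCIRBP; open symbols are NC_1 and SiCIRBP_2). S1PR3 is highest at a mean of 63.5 TPM and S1PR1 lowest at 1.02 TPM, and P2RY11 has its 3 SiCIRBP points to the right of its 3 NC points.

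By the edgeR test over 4 libraries, 9.62% of all genes tested were higher and 9.76% lower at an adjusted p under 0.05. Of 11 G alpha members, GNAI2 was higher (log2 fold change 0.32, SE 0.08, adjusted p = 0.0312, edgeR over 4 libraries) and GNA13, the G13 subunit, was lower (-0.60, SE 0.13, adjusted p = 0.0274). GNA13 had 69.3, 92.3 and 88.9 CPM in NC and 52.1, 54.9 and 67.7 CPM in SiCIRBP, with no overlap, and its adjusted p with the length offset was 0.0527. GNAI2, the main Gi subunit here, had 360, 353 and 332 CPM in NC, 431 CPM in SiCIRBP_1 and 425 CPM in SiCIRBP_3, but 153 CPM in SiCIRBP_2. The left-out library was thus the lowest, and over 6 libraries the log2 fold change was -0.05. GNAL, the Gs-like subunit of olfactory and striatal neurons, had 16.2, 19.5 and 24.6 CPM in NC and 8.66, 8.05 and 14.9 CPM in SiCIRBP, with no overlap (log2 fold change -0.91, SE 0.26, adjusted p = 0.0505). GNAS had a log2 fold change of 0.08 (SE 0.09, adjusted p = 0.581).

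Of 12 G beta and gamma members 3 were higher and 0 were lower by the edgeR test over 4 libraries, namely GNG5, GNG11 and GNB3 (4 higher and 2 lower at an unadjusted p, 4 higher and 0 lower by DESeq2). Over 6 libraries 4 of the 12 lay wholly above NC and 4 (GNB5, GNG4, GNG12 and GNGT1) wholly below. Over all genes tested 9.62% were higher and 9.76% lower at the adjusted p, and 16.2% lay wholly above and 16.6% wholly below. GNB3, a scarce beta subunit, had a log2 fold change of 0.91 (SE 0.20, adjusted p = 0.0258), and its SiCIRBP_2 value lay inside the NC range. GNG11, a gamma subunit, had 59.1, 46.6 and 43.1 CPM in NC and 71.3, 82.2 and 71.5 CPM in SiCIRBP (log2 fold change 0.67, SE 0.09, adjusted p = 0.00838). GNG5, a widely expressed gamma subunit, had 79.0, 68.6 and 67.1 CPM against 81.9, 165 and 99.0 CPM. Neither gene's groups overlapped. GNG5 is a short transcript of 920 bases, and its adjusted p with the length offset was 0.146. GNB1 had a log2 fold change of -0.14 (SE 0.12, adjusted p = 0.445) and GNB2 of 0.16 (SE 0.08, adjusted p = 0.173).

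Signal termination went both ways. RGS2, which speeds GTP hydrolysis on Gq and lowers vascular tone, had 25, 44 and 38 counts in NC and 13, 35 and 8 in SiCIRBP (log2 fold change -1.99, SE 0.43, adjusted p = 0.0247, edgeR over 4 libraries). SiCIRBP_2 lay within the NC range, and over 6 libraries the value was -0.88. RGS4, the most abundant RGS member and known in heart muscle, had 255, 232 and 190 CPM in NC and 336, 229 and 339 CPM in SiCIRBP (log2 fold change 0.68, SE 0.11, adjusted p = 0.0117), again with SiCIRBP_2 inside the NC range. The other 10 RGS members did not pass the test, by which 9.62% of all genes tested were higher and 9.76% lower. Of 6 receptor kinases and arrestins, GRK2, the kinase that silences beta receptors, was lower (log2 fold change -0.34, SE 0.08, adjusted p = 0.0284) and 0 were higher (2 lower and 0 higher at an unadjusted p, 1 lower and 0 higher by DESeq2).

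In the cyclic AMP arm, every member that passed the test was lower. Of 17 members that make, break down, anchor or sense cyclic nucleotides, 6 were lower and 0 were higher at an adjusted p under 0.05 by edgeR over 4 libraries, and 13 had a fitted value below 0. At an unadjusted p 8 were lower and 0 higher, and by DESeq2 5 were lower and 0 higher. Their median log2 fold change was -0.43, against 0.00 over all genes tested. In all 6 libraries 8 of the 17 had every SiCIRBP value below every NC value, and PDE7A had every SiCIRBP value above. Over all genes tested 9.76% were lower at the adjusted p and 16.6% lay wholly below. These genes are long, with a median assigned length of 5956 bases, and with the length offset the median was -0.27 and 4 of the 6 were still lower. With that offset the medians of amine receptors (-0.38) and of tyrosine and lipid kinase signalling (-0.29) were lower than this.

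AKAP12, a scaffold that anchors protein kinase A, fell most clearly. It had 117, 159 and 167 CPM in NC_1 to NC_3 and 53.8, 49.6 and 78.1 CPM in SiCIRBP_1 to SiCIRBP_3. NC_1 was the lowest NC library and SiCIRBP_3 the highest SiCIRBP library, and a gap remained between them. The log2 fold change was -1.31 (SE 0.17, adjusted p = 0.00754, edgeR over 4 libraries), -1.29 over all 6 (adjusted p = 0.0869, edgeR; 5.23e-06, DESeq2) and -1.12 with the length offset. PDE3A, the phosphodiesterase that breaks down cyclic AMP in heart muscle and is inhibited by milrinone, had 33.7, 50.6 and 57.0 CPM in NC and 26.5, 13.7 and 29.7 CPM in SiCIRBP (log2 fold change -0.94, SE 0.12, adjusted p = 0.00688). The count groups were apart, but in TPM SiCIRBP_3 stood at 61.8 against 48.8 to 63.9 TPM in the NC libraries, because TPM also depends on the assigned transcript length. PDE4B, of the PDE4 family that shapes beta-adrenergic signals, had 30.2, 36.1 and 34.5 CPM in NC and 16.8, 17.6 and 25.5 CPM in SiCIRBP (log2 fold change -0.74, SE 0.19, adjusted p = 0.0414).

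ADCY6, a main adenylyl cyclase of heart muscle, had 57.3, 66.5 and 76.2 CPM in NC and 47.2, 28.6 and 49.8 CPM in SiCIRBP. The groups did not overlap, and the log2 fold change was -0.56 (SE 0.10, adjusted p = 0.0173, edgeR over 4 libraries). ADCY7 was scarce at 39.7, 73.1 and 86.4 counts in NC and 39.5, 31 and 28.2 in SiCIRBP (log2 fold change -1.25, SE 0.29, adjusted p = 0.0309). Of its transcript words 39.3% lie opposite BRD7 on the other strand, and BRD7 had a log2 fold change of 0.19 (SE 0.10, adjusted p = 0.204). AKAP13, both a kinase anchor and an exchange factor, had 110, 141 and 135 CPM against 100, 97.1 and 99.9 CPM (log2 fold change -0.47, SE 0.08, adjusted p = 0.0141), and its adjusted p with the length offset was 0.0602.

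Lists of the wider pathway, not limited to members, were counted by the same test. Over all genes tested 9.62% were higher and 9.76% lower at the adjusted p, and 18.2% and 18.5% at the unadjusted p. Of 7 adenylyl cyclases tested 2 were lower and 0 higher at an adjusted p under 0.05 (edgeR over 4 libraries; 3 lower and 1 higher at an unadjusted p), and of 10 cyclic AMP phosphodiesterases 4 were lower and 0 higher (5 and 0 at an unadjusted p), among them the non-members PDE7B (log2 fold change -1.01, SE 0.11) and PDE10A (-0.89, SE 0.09). Of 8 protein kinase A and EPAC genes tested, PRKAR1B was higher (0.78, SE 0.15) and 0 were lower (2 higher and 0 lower at an unadjusted p). Of 12 tested genes on a list of cyclic AMP target genes and of the factors CREB1, ATF1 and CRTC2 that act on them, 6 were lower and 0 higher, against 9.76% and 9.62% of all genes: NR4A1, NR4A2, NR4A3, SIK1, JUNB and DUSP1. At an unadjusted p 9 were lower and 0 higher, CREB1 and CRTC2 among them. JUNB had 70.4 CPM in SiCIRBP_2, above the 42.8 to 46.8 CPM of the NC libraries, and its log2 fold change went from -0.49 over 4 libraries to 0.01 over 6. For NR4A2, SiCIRBP_2 (1.67 CPM) lay above NC_1 (1.30 CPM). The left-out NC_1 also lay near SiCIRBP for SIK1, at 55.6 CPM, against 127 and 126 CPM in NC_2 and NC_3 and 51.8 CPM in SiCIRBP_2. For NR4A3 it had 1.47 CPM, against 5.90 and 5.58 CPM in NC_2 and NC_3 and 1.24 CPM in SiCIRBP_2. NR4A1 had 15.9 CPM in NC_1, against 32.0 and 32.5 CPM in NC_2 and NC_3. Over 6 libraries the adjusted p was 0.104 for SIK1, 0.103 for NR4A3 and 0.0869 for NR4A1 (edgeR). In the calcium arm 5 of 12 tested genes were lower and 0 higher (6 and 0 at an unadjusted p), among them PLCB1, a member (log2 fold change -0.56, SE 0.15, adjusted p = 0.0429), and the protein kinases C PRKCA and PRKCE. The part of transcript length in the counts of these lists was not tested.

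Among genes of small GTPase signalling, the GTPases were higher where they passed the test, and exchange factors went both ways. Of 5 small GTPases among the members, RHOB, RHOA and RAC1 were higher and 0 were lower at an adjusted p under 0.05 by edgeR over 4 libraries, with the same counts at an unadjusted p and by DESeq2. Of 25 exchange factors, which load GTP onto them, 3 were lower (TIAM2, TRIO and ARHGEF12) and 2 were higher (PREX1 and RAPGEFL1). In all 6 libraries 7 of them lay wholly below NC and 1 wholly above. Over all genes tested 9.76% were lower and 9.62% higher at the adjusted p, and 16.6% lay wholly below and 16.2% wholly above. RHOA had 722, 735 and 699 CPM in NC and 875, 1026 and 852 CPM in SiCIRBP, all above the NC values. The difference was small (log2 fold change 0.27, SE 0.08, adjusted p = 0.0499), and with the length offset the adjusted p was 0.0781. RAC1, which builds lamellipodia, had 288, 268 and 246 CPM against 384, 502 and 313 CPM (log2 fold change 0.44, SE 0.11, adjusted p = 0.04; 0.0967 with the offset), and 14.7% of its transcript words occur in its pseudogenes.

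TIAM2, a Rac exchange factor, had 8.17, 10.1 and 11.4 CPM in NC and 4.49, 6.15 and 4.60 CPM in SiCIRBP. The groups were apart, and the log2 fold change was -1.24 (SE 0.17, adjusted p = 0.00821, edgeR over 4 libraries). TRIO, a large exchange factor that Gq activates, had 347, 407 and 398 CPM against 270, 207 and 263 CPM (log2 fold change -0.59, SE 0.07, adjusted p = 0.00688). ARHGEF12, which links G12/13 to RHOA, had 155, 188 and 183 CPM against 129, 122 and 126 CPM (log2 fold change -0.54, SE 0.08, adjusted p = 0.00947). TRIO and ARHGEF12 are long transcripts, at 11460 and 10326 bases, and both kept an adjusted p under 0.05 with the length offset (0.0218 and 0.0331). PREX1, which beta-gamma subunits activate, went the other way over 4 libraries (log2 fold change 0.41, SE 0.08, adjusted p = 0.0173) but had 95.7 CPM in SiCIRBP_2, below all NC libraries.

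Among ligands and other partners, CALM3 and ANXA1 rose. CALM3, 1 of the genes for calmodulin, had 422, 336 and 313 CPM in NC and 518.7, 714 and 569 CPM in SiCIRBP, without overlap (log2 fold change 0.75, SE 0.09, adjusted p = 0.00614, edgeR over 4 libraries). ANXA1, which acts through formyl peptide receptors, had 212, 202 and 194 CPM against 255, 343 and 260 CPM (log2 fold change 0.38, SE 0.07, adjusted p = 0.0201). The amyloid precursor family did not pass the test, with log2 fold changes of -0.15 (SE 0.09, adjusted p = 0.283) for APP and -0.16 (SE 0.08, adjusted p = 0.198) for APLP2.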

How the data were processed

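RNA-seq was measured in 6 libraries. The sources used here name fastp, HISAT and RSEM as the submitters' processing tools and hg38 as the build, without versions. The authors deposited expected counts (estimates, not always whole), TPM values and a gene length per gene. The authors' fold change and p-value columns were not used. The strand setting of the counting is not given in the sources used here. The labels name T0519 cells and the paper names AC16.

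Expected counts were rounded, low genes were removed with filterByExpr, libraries were scaled by TMM, and SiCIRBP was compared with NC by the quasi-likelihood test of edgeR 4.0.16 in R 4.3.3 (limma 3.58.1) over all genes, with Benjamini-Hochberg adjustment. NC_2, NC_3, SiCIRBP_1 and SiCIRBP_3 formed the main fit, as in the study, and all 6 libraries were fitted beside it. A call needed an adjusted p under 0.05 and at least 2-fold. DESeq2 1.42.0, RLE factors, other count filters, a replicate block, a TPM scale (pseudocount 1) and leaving out each library were alternatives. A gene length offset, 5-library fits and the 6-library fit without a filter were chosen after seeing the data. The edgeR script was tested on simulated data, where it recovered 98.5% of 200 genes changed by a log2 of 1.5 in the 4-library comparison (15421 genes). The simulation gave all genes the same small spread and changed only well-counted genes. It checks the script and does not measure recovery in these libraries. Replicates differed by more than sampling noise, so no library was counted as a duplicate.

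The members and gene lists were chosen with earlier results of these data known. Named genes were the called members up to the 15 with the smallest p, the 12 members with the highest mean TPM, the 8 with the largest change without overlap, and cardiac receptors of at least 1 TPM. Other genes named were chosen after their values were seen. Roles were assigned by symbol. Locations come from GENCODE 29, and promoters from RefSeq (GRCh38.p14). Shared sequence is the share of a gene's 31-base words found in transcripts of other genes. Figures were drawn with matplotlib 3.10.9. Some members are not reported here.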

Additional observations from a re-analysis of the deposited data

How the results depend on the processing

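Over 4 libraries 8 members were called higher and 10 lower. These counts were 0 and 0 over all 6 libraries and also with the length offset over all 6, 1 and 0 with the replicate block, 5 and 5 with DESeq2 over 4 libraries, 1 and 0 with SiCIRBP_2 added, and 28 and 34 without a minimum fold. The lower count was 6 with DESeq2 over 6 libraries, 5 with NC_1 added and 6 over 6 libraries without a filter. Leaving out 1 library gave 2 to 18 higher and 0 to 21 lower members. Over all genes 281 were called higher and 278 lower, which became 0 and 0 over 6 libraries and with the length offset over 6, 1 and 0 with the replicate block, 109 and 124 with NC_1 added, 5 and 13 with SiCIRBP_2 added, 177 and 159 over 6 libraries without a filter, 162 and 160 with DESeq2 over 6, and 1484 and 1505 without a minimum fold. The higher count alone was 169 with DESeq2 over 4 libraries and 468 without a filter. Leaving out 1 library gave 24 to 618 higher and 37 to 558 lower genes. The 0 members called in each direction over 6 libraries became 6 and 6 with DESeq2, 6 and 6 without a filter, and 1 higher with the replicate block. The median log2 fold change of the members was between -0.13 and 0.00793 with 1 library left out. In TPM, 23 members lay wholly above NC, against 35 in CPM. Of 716 tested values of the 45 named genes under these alternatives, 527 kept their side of the threshold and 7 past the threshold changed sign. These were F2RL1 at -0.27 without SiCIRBP_3 (-0.27 to 0.52 over the fits with 1 library left out), and GNAI2 at -0.0513 over 6 libraries by edgeR and -0.0509 by DESeq2, -0.19 with the replicate block, -0.0276 with SiCIRBP_2 added, -0.0658 over 6 libraries without a filter and -0.0817 with the length offset over 6. Counting values past the threshold in neither fit, 63 of all 761 values (TPM differences included) changed sign. The cause of these changes was not tested. Leaving out a library left 1 group with a single sample, which was assumed to vary like the other group. The numbers shared by NC and SiCIRBP libraries did not pair them (correlations of -0.10, 0.02 and -0.02), so the replicate block carries only a number. Genes under 1 TPM rest on few counts, which limits their precision.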

Other observations

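The members that carry tyrosine or lipid kinase signalling, 13 genes that share the term with the receptors, had a median log2 fold change of -0.42 over 4 libraries. Of these 3 were lower and 2 were higher at an adjusted p under 0.05 (edgeR), and with the length offset 1 was lower and 2 were higher. Over all genes tested 9.76% were lower and 9.62% higher, and 7.76% and 8.82% with the offset. The 7 members that encode opsins, odorant and taste receptors lay between 0.12 and 2.17 TPM, with 6 below 1 TPM, and 0 of the 6 tested passed the edgeR test, also at an unadjusted p under 0.05 and with DESeq2. The 13 noncoding, antisense and read-through members gave 2 lower and 0 higher genes by the edgeR test, 3 lower and 1 higher at an unadjusted p, and 2 lower and 0 higher by DESeq2.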
